A study of Rattus norvegicus with 18 samples.

Results

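The comparison described here is the response of rat blood to procainamide averaged over 2 strains with equal weight, together with the genes that moved the same way in both. All 18 arrays of the series entered it, in 4 groups of male rats. The Brown Norway (BN) rats gave 4 arrays after sterile water and 4 after procainamide at 40 mg/kg. The Sprague Dawley (SD) rats gave 5 arrays after sterile water and 5 after procainamide at the same dose. Blood was drawn from the venous sinus of the eye when treatment ended; its length is not given in the sources used here. The arrays were Agilent 2-colour arrays with the blood sample in Cy5. The Cy3 reference is labelled as control replicate 1 of the strain. On that array of each strain the labels therefore compare an RNA with itself. The ratios do not show this: their SD over the probes was 0.409 on BN control 1, where the other BN controls had 0.334 to 0.459, and 0.252 on SD control 1, where the other SD controls had 0.205 to 0.285. What the reference channel holds is therefore uncertain, and with it the zero of every ratio. Every value below is a log2 ratio of Cy5 over Cy3, so that 1 unit is a 2-fold difference. The average response is the mean of the BN difference and the SD difference, procainamide minus control. The series asks how strains differ in their reaction to the drug, and the average shows what the 2 strains had in common.

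Procainamide is an antiarrhythmic drug that can induce lupus-like autoimmunity in people, and it is known as an inhibitor of DNA methylation in T cells. Interferon gamma, made by activated T cells and NK cells, signals through its receptor and the Jak1 and Jak2 kinases. Its target genes can carry GAS elements, and among them is Irf1, a transcription factor that with related factors binds ISRE elements in genes of antigen presentation and chemokines. Whole blood also holds red cells, platelets, neutrophils, monocytes, B cells and T cells, so a level in these arrays is a sum over cell types. Fewer cells of a type and less RNA per cell cannot be told apart in such samples.

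The arrays shared 3 slides. Slide 1 held the 5 SD control arrays and SD procainamide arrays 1 to 3. On slide 2 were the 4 BN control arrays and SD procainamide arrays 4 and 5. Slide 3 carried only BN procainamide, 4 arrays. Slide 2 had a scan day of its own, and the other two slides had one day in common. Within BN, slide, scan day and treatment cannot be told apart. The median Cy5 intensity of an array lay between 997 and 1986 in BN control, between 1694 and 3187 in BN procainamide, between 2152 and 2876 in SD control and between 1446 and 2628 in SD procainamide. The share of probes well above background ranged from 73.4% to 87.1%, and no spot was saturated. Markers of blood cells fixed as lists were well above background on all 18 arrays for 27 of 30 T cell, 22 of 22 B cell, 25 of 25 monocyte, 23 of 25 neutrophil, 24 of 24 erythroid and 16 of 18 platelet genes. BN control 1 stood apart from the other BN controls in the median log2 ratio of 3 lists. It had 1.18 for erythroid markers (others -1.27 to -0.63), 0.64 for cell cycle genes (others -0.46 to -0.32) and 0.52 for antiviral genes (others -0.33 to -0.10). Since separate animals are not stated in the labels, p-values cover the spread between these samples, which may be technical.

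In the average of both strains, blood after procainamide carried more RNA of interferon gamma (Ifng), of 20 of 26 genes in its list and of 11 of 16 genes of MHC class I presentation. The largest rises were those of Acod1, Hk3 and Ifng, and the chemokines Cxcl9, Ccl20, Ccl2 and Ccl7 rose with them. In the average, 14 of 27 markers of endothelium, connective tissue and epithelium, 9 of 18 platelet markers and 8 of 13 tissue kallikreins fell. Of 13616 named genes tested, 881 rose and 1220 fell in the average response (limma, Benjamini-Hochberg adjusted p under 0.05), which is 6.47% and 8.96% of the genes. The median average response over all 13616 genes was -0.02. Counts in the lists below stand beside these 6.47% higher and 8.96% lower. The share of higher calls was 41.9%, against 53.1% in the authors' deposited matrix. An average can pass through 1 strain alone. The sign was the same in both strains in 1854 of the 2101 called genes (88.2%) and opposite in 247. Of those 247, 240 had the larger response in BN. Over all 13616 genes the sign was the same in 6972 (51.2%). Responses of opposite sign cancel in the average, so the higher share among called genes follows in part from how they were called. Within each strain, 115 genes passed as higher in both (0.845%) and 122 as lower in both (0.896%). These 2 counts leaned on single arrays: without SD control 2 they were 54 and 36. Another 374 genes passed only in the average. Genes passed in opposite directions in the 2 strains in 8 cases.

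A stricter group of genes is followed below. In these the average passed, and in each strain every procainamide array lay on the same side of every control array. There were 160 such higher genes (1.18%) and 173 such lower genes (1.27%), 333 in all (2.45%). Their median average response was 0.57 in the higher and -0.62 in the lower genes. The BN response was the larger in 275 of the 333, with a median ratio of BN to SD log2 response of 1.38 in the higher and 1.46 in the lower genes. The responses differed between strains by the test of the difference in 26 of the 333, where 10.7% of all genes tested did. The choice of the 333 leaves out genes that moved in 1 strain alone or in opposite directions. The 2 shares are therefore no test of how alike the strains responded. The smaller of the 2 responses exceeded 1 log2 unit in 16 higher and 5 lower genes. Without the 2 SD procainamide arrays of slide 2, where the SD comparison lies within slide 1, all 333 passed in the average. They were chosen on these same arrays, so this is no separate test. Genes that passed in both strains fell there from 115 to 54 higher and from 122 to 26 lower. In a fit with scan day added 325 of 333 passed, while over all genes the calls fell to 486 higher and 659 lower. Its scan day term rests on SD procainamide arrays 1 to 3 against 4 and 5, since scan day and treatment coincide in BN.

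**Figure D1:**
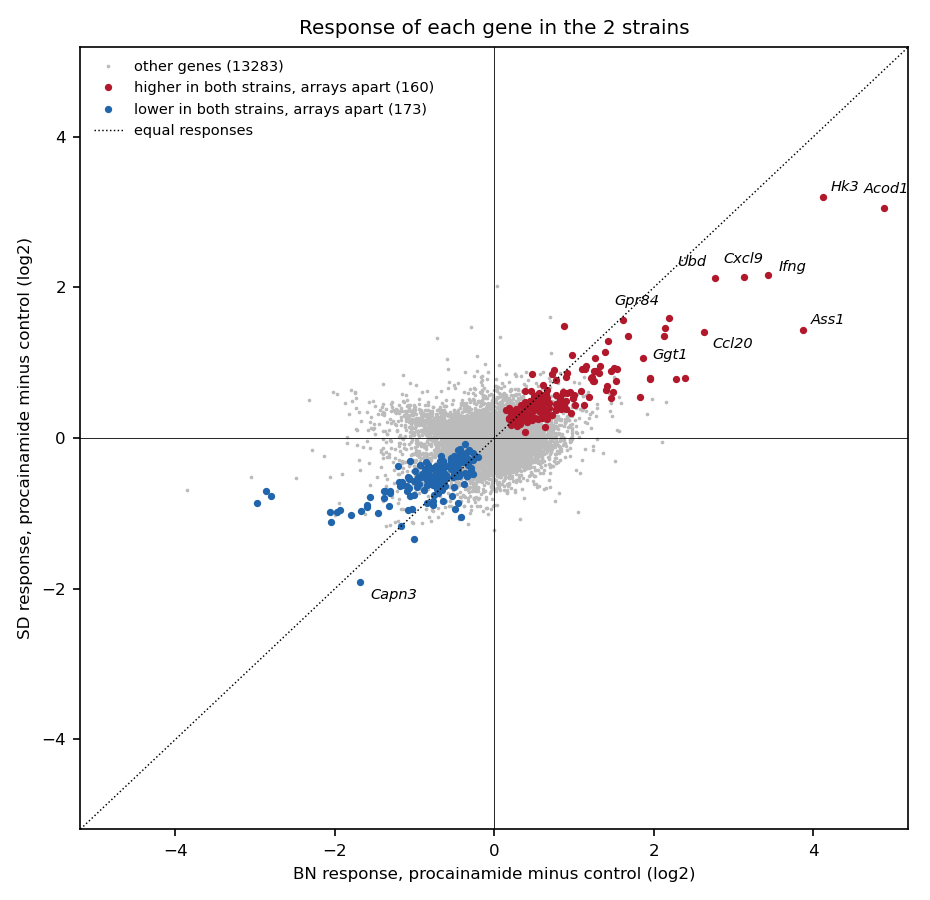
Each point is 1 of 13616 named genes, with the BN response on the x axis and the SD response on the y axis, both as procainamide minus control in log2 units. Red points are the 160 genes higher, and blue points the 173 lower, in the average and on every treated array of both strains; most lie on the BN side of the dotted line of equal responses.

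The direction carried over unevenly between the strains. They share no sample, only slides and array design. Of 194 genes that rose in SD (1.42% of genes), 87.6% were also higher in BN, where 47.5% of all genes were, and 59.3% passed there. Of 239 that fell in SD (1.76%), 86.6% were lower in BN, where 52.5% of all genes were, and 51.0% passed. In the other direction, 64.6% of the 1224 genes that rose in BN (8.99%) were higher in SD, where 48.4% of all genes were, and 9.40% passed. Of the 1884 that fell in BN (13.8%), 45.8% were lower in SD, where 51.6% of all genes were, and 6.48% passed. Genes lower in BN were therefore no more often lower in SD than genes in general. Across all 13616 genes the responses had a Pearson correlation of 0.25, as a description across genes that share arrays and labelling.

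Because the higher genes include many known targets of interferon gamma, the sequences before their starts were searched for the letters of 3 elements. The windows ran from 250 bases before to 50 bases after the gene start in the RefSeq table for build GRCr8, and both strands were read. The GAS letters were TTC, any 3 bases and GAA. The ISRE letters were GAAA, any 2 bases and GAAA, and the NF-kB letters GGG, any 2 bases and TTTCC. A promoter was in the table for 132 of the 160 higher and 132 of the 173 lower genes. The 6 promoters below are those of genes in the interferon gamma and MHC class I lists that were apart on the arrays of both strains, had an average response of at least 1 after rounding to 2 decimals and had a GAS or ISRE match before the start. They are shown because they carry these letters in genes whose RNA rose in both strains. Other genes met the same rule on lists and response without such a match. Ifng, Psmb9 and Wars1 had none of the 3 sets of letters in the window. Ubd had only an NF-kB match, and the GAS match of Cxcl9 did not lie wholly before the start. Gbp2, Gbp5 and Irgm encode interferon-induced GTPases, Irf1 a transcription factor, Psme2 a subunit of the proteasome activator PA28 and Tap1 a chain of the peptide transporter. Each is given 5′ to 3′ over the 250 bases before the start, with matches in capitals.
Gbp2: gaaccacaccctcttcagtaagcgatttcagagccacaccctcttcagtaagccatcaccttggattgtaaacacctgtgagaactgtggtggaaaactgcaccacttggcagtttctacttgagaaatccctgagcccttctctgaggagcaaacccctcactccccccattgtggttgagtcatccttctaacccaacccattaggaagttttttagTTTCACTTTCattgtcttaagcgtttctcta
Irgm: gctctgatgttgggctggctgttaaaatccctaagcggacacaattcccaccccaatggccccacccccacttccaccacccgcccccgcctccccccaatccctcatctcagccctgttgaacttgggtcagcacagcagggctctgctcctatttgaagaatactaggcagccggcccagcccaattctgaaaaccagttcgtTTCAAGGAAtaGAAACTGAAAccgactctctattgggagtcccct
Gbp5: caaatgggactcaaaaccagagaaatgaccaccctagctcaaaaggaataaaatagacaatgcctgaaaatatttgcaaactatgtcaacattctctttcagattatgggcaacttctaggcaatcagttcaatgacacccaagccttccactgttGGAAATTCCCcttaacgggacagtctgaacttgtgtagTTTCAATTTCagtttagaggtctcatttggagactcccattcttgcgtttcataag
Irf1: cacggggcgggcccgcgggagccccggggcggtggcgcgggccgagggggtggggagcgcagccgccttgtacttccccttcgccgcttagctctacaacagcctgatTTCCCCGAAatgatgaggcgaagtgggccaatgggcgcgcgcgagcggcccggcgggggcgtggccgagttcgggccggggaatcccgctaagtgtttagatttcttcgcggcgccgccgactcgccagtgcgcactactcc
Psme2: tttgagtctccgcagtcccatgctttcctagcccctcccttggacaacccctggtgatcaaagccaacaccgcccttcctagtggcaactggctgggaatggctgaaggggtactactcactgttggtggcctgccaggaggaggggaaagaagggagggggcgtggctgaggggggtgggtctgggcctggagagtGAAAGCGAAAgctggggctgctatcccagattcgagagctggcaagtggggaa
Tap1: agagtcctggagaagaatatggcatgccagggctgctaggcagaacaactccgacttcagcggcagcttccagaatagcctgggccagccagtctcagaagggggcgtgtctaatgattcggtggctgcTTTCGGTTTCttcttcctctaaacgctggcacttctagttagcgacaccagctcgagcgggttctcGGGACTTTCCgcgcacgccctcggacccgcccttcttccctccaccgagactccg
In GRCr8 these stretches are Gbp2 at chr2:234005477-234005726 (plus strand), Irgm at chr10:33742579-33742828 (minus strand), Gbp5 at chr2:233910749-233910998 (plus strand), Irf1 at chr10:38417685-38417934 (plus strand), Psme2 at chr15:33052752-33053001 (minus strand) and Tap1 at chr20:4668544-4668793 (minus strand). Bases are counted back from the start, so that -1 is the last base shown. Gbp2 has an ISRE match at -31 to -22 and Psme2 at -53 to -44. Irgm has a GAS match at -45 to -37 and an ISRE match at -34 to -25, with 2 bases between them. Gbp5 has an NF-kB match at -94 to -85 and an ISRE match at -56 to -47. Irf1 has a GAS match at -142 to -134. Tap1 has an ISRE match at -121 to -112 and an NF-kB match at -55 to -46.

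The ISRE letters were in 14.4% of the windows of the higher genes (19 of 132), in 0 of the 132 windows of the lower genes, in 3.17% of those of all tested genes and in 3.79% of all 27457 promoters in the table. Of the 19 windows with the ISRE letters, 9 belonged to the 19 higher members of the interferon gamma and MHC class I lists that have a promoter in the table. The other 10 were among 113 genes outside both lists (8.85%). The NF-kB letters were in 6.06% of the windows of higher genes, 2.27% of lower genes and 1.74% of all tested genes. The GAS letters were as frequent in higher genes (7.58%) as in lower genes (7.58%), and 7.43% of all tested genes had them. These are shares of windows that hold the letters and say nothing of binding.

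Interferon gamma and its targets rose together. Of 26 measured members of the interferon gamma list, 20 rose and 1 fell in the average response, and 13 rose in both strains. The list's median average response was 0.71, with 0.87 in BN and 0.48 in SD, against -0.02 over all genes tested. In Cy5 alone, after normalization between arrays, 20 rose and 0 fell, with a median of 0.54.

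Ifng itself, the cytokine, had log2 ratios of -0.08, -0.38, -0.34 and -0.65 on BN control arrays 1 to 4 and 1.95, 3.76, 4.19 and 2.36 on BN procainamide arrays 1 to 4. In SD it had -0.33, -0.82, 0.20, -0.54 and 0.40 on the controls and 1.72, 3.15, 1.40, 1.77 and 1.71 after procainamide. The groups did not overlap in either strain, and SD procainamide 2 was the highest of its group. The average response was 2.80 ± 0.29 (SE; adjusted p = 7.76e-06), 3.43 in BN and 2.17 in SD.

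On the receiving side little moved. Of the receptor chains, Ifngr1 fell by 0.28 (adjusted p = 0.0128) and Ifngr2 had an average response of 0.13 (adjusted p = 0.122). The kinases Jak1 (0.08, adjusted p = 0.793) and Jak2 (0.18, adjusted p = 0.18) did not pass. Il18, a cytokine that acts with interleukin 12 to induce Ifng, had -0.01, and Tbx21, the master factor of Th1 cells, had 0.08 (adjusted p = 0.969 and 0.621). Of the genes that carry interleukin 12 signals, Il12rb1 rose by 0.54, Il12rb2 by 0.49 and Stat4 by 0.43.

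Of the transcription factors downstream, Irf1 had log2 ratios of 0.23, 0.03, -0.05 and -0.32 on the BN controls and 1.31, 1.61, 1.40 and 1.43 on the BN procainamide arrays. Its SD ratios were -0.14, -0.24, 0.23, -0.25 and 0.02 on the controls and 0.61, 0.78, 1.03, 0.88 and 0.78 after procainamide. Every treated array lay above every control of its strain. The average response of Irf1 was 1.18 ± 0.09 (SE; adjusted p = 1.87e-07), and it was larger in BN than in SD by 0.58 (adjusted p = 0.0386). Irf8, a factor of myeloid cells, rose by 0.41 in the average, and neither strain's arrays were apart.

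Among the products, the T cell chemokine Cxcl9 was the highest after Ifng. Its log2 ratios were -0.02, -0.14, -0.89 and 0.40 on the BN controls and 2.57, 3.47, 2.83 and 3.02 after procainamide. In SD they were -0.56, -0.33, 0.51, 0.03 and 0.06 on the controls and 2.14, 2.53, 1.37, 1.55 and 2.77 after procainamide. The groups were well apart in both strains, with an average response of 2.63 ± 0.21 (SE; adjusted p = 3.84e-07). Its relatives Cxcl10 (0.76) and Cxcl11 (0.54) rose less, and their receptor Cxcr3 rose by 0.64. Ubd, a ubiquitin-like modifier induced by interferon gamma, rose by 2.44, with BN procainamide 2 (0.79) just above the highest BN control (0.72). The GTPases rose too, Gbp2 by 1.46, Irgm by 1.27, Gbp5 by 1.23 and Igtp by 0.66, the kynurenine enzyme Ido1 by 1.05, the tryptophanyl-tRNA synthetase Wars1 by 1.00, the checkpoint ligand Cd274 by 0.78 and the feedback inhibitor Socs1 by 0.76. The other probe of Igtp had 1.58. Cxcl11, Cd274 and Socs1 overlapped between treated and control arrays in both strains. Igtp, Ido1 and Cxcr3 overlapped in SD alone. Socs1 passed in neither strain (adjusted p = 0.0505 in BN and 0.218 in SD).

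Genes of MHC class I presentation rose in 11 of 16 measured members and fell in 0, with a median average response of 0.57 against -0.02 over all genes. The immunoproteasome subunits rose, Psmb9 by 1.01, Psmb10 by 0.61 and Psmb8 by 0.39, and so did both PA28 subunits, Psme2 by 1.00 and Psme1 by 0.53. Of the peptide transporter, Tap1 rose by 1.00 while Tap2 had 0.04 (adjusted p = 0.886). Tapbp, which holds the transporter to MHC class I, rose by 0.49. The heavy chains RT1-A2 (0.87), RT1-A1 (0.75) and RT1-CE5 (0.75) rose, and B2m, their light chain, rose by 0.73. Treated and control arrays overlapped in both strains for Psmb8, in BN alone for B2m and in SD alone for RT1-CE5. The general chaperones of the endoplasmic reticulum did not pass, Calr at 0.35 (adjusted p = 0.0991), Canx at -0.01 (adjusted p = 0.985) and Pdia3 at -0.16 (adjusted p = 0.494). Tapbpl had -0.46 in BN and 0.74 in SD, a difference that passed its own test (adjusted p = 0.0286). The other probe of RT1-CE5 (0.63) did not pass. The RT1 genes are near-identical copies, and signal of one can reach the probe of another.

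**Figure D2:**
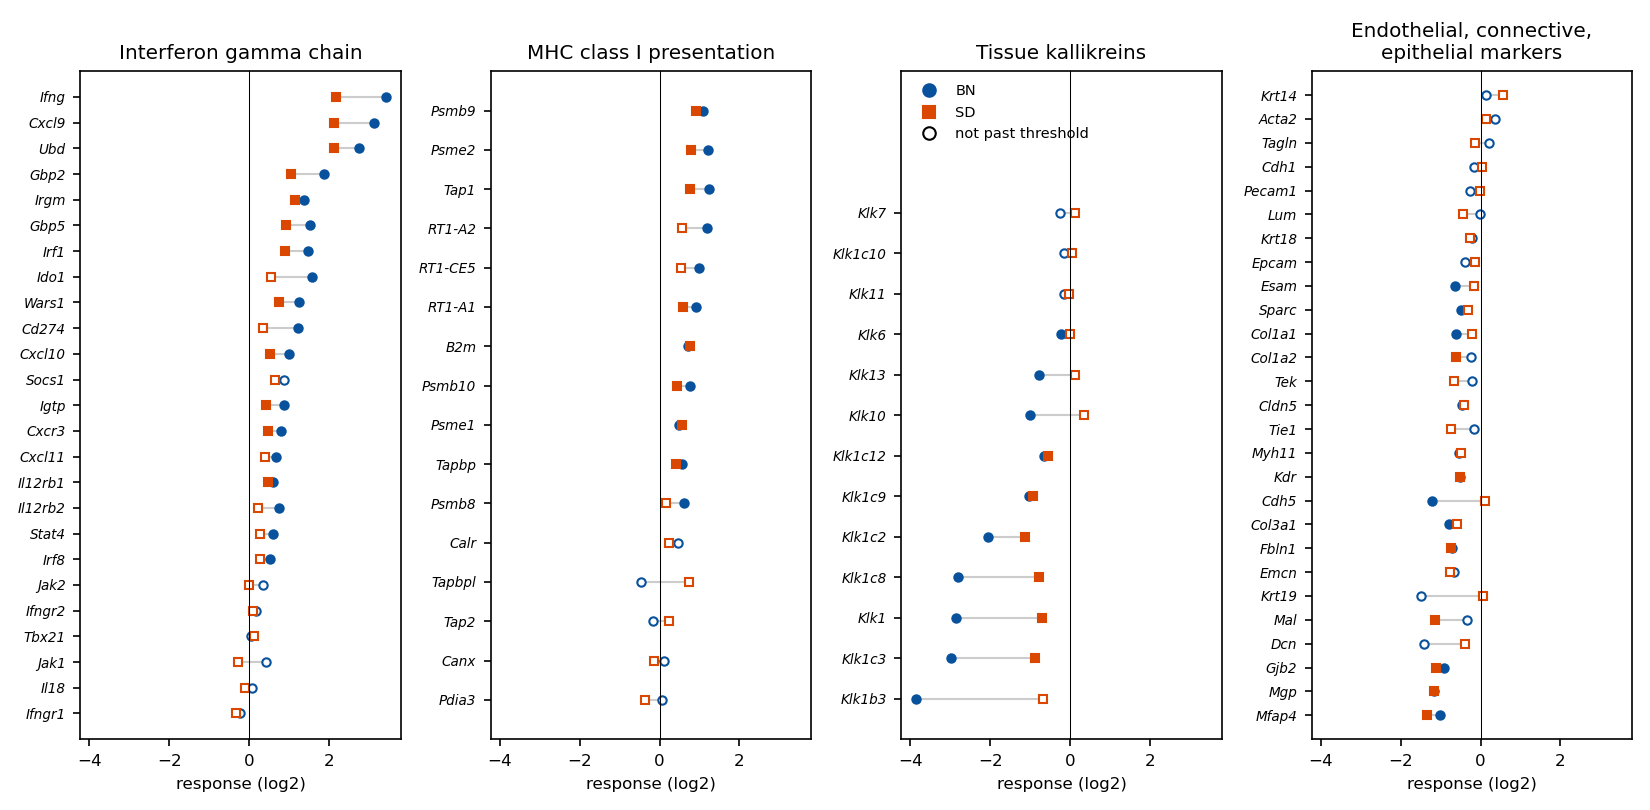
Responses of the reported members of 4 gene lists on the x axis (log2, procainamide minus control), BN as blue circles and SD as orange squares, filled where the response passed in that strain. Most interferon gamma and MHC class I members lie right of 0 in both strains. Most kallikreins and most connective tissue markers lie left of 0 in both, with the BN kallikrein responses reaching -3.86.

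Part of these ratios lay in the reference channel. The reference is labelled as the same RNA on every array of a strain, yet Cy3 alone, normalized between arrays, was lower after procainamide by 1.10 for Cxcl9 (Cy5 alone 1.53) and by 1.06 for Ubd (Cy5 1.38). For B2m the change was -0.58 in Cy3 and 0.15 in Cy5 (adjusted p = 0.233 in Cy5 alone). For Ifng it was 0.06 in Cy3 and 2.86 in Cy5, and for Irgm -0.10 and 1.17. Over the MHC class I list, 9 of 16 members fell in Cy3, and in Cy5 alone 9 rose with a median of 0.27. Cxcl10 (0.28, adjusted p = 0.0571) and Psme1 (0.17, adjusted p = 0.0773) did not pass in Cy5 alone. Of the 131 named genes called in the average, 49 had a log2 value at least 1.5 times smaller in Cy5 alone, and 19 did not pass there. The ratios of such genes therefore exceed the difference in the sample channel. The cause was not tested.

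**Figure D3:**
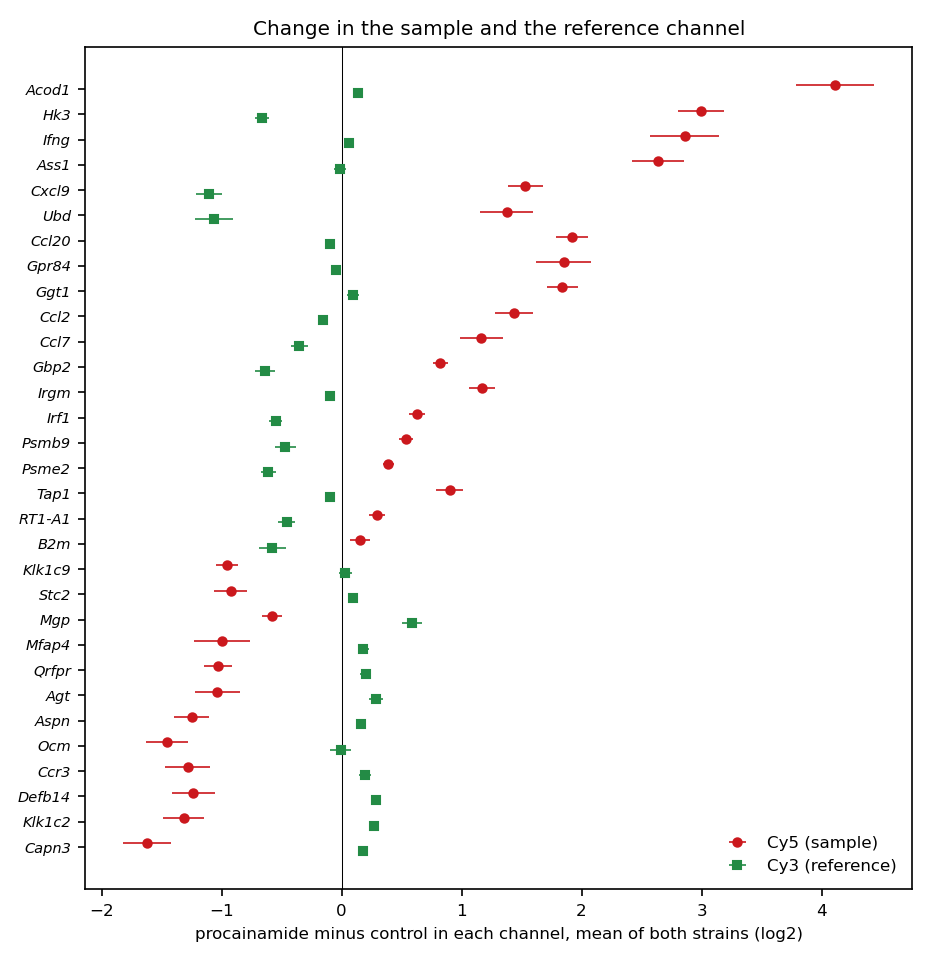
Average response of 31 genes in each channel on its own (log2, x axis), Cy5 as red circles and Cy3 as green squares, with bars for 1 SE. Cxcl9 and Ubd changed in both channels in opposite directions, as did Mgp, while Acod1, Ifng, Ass1 and Ocm changed in Cy5 with Cy3 near 0.

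Of 29 measured genes of the antiviral programme shared by type I interferons, 6 rose and 1 fell, with a median of 0.11 (BN -0.0032, SD 0.32). Without BN control 1, which stood apart in this list, 10 rose, and the medians were 0.20 in the average and 0.22 in BN. Oasl2, an antiviral sensor, rose by 0.83 (BN 0.75, SD 0.91), Rtp4 by 0.71 and Stat2 by 0.39. Only Oasl2 of this list passed in both strains. Genes of MHC class II rose in 3 of 15, with a median of -0.01. These were the transactivator Ciita (0.49), Rfx5 (0.37) and the lysosomal reductase Ifi30 (0.25). Ciita and Rfx5 rose more in BN than in SD (adjusted p = 0.00802 and 0.0464 for the difference).

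The 2 highest genes, Acod1 and Hk3, belong to myeloid metabolism. Hk3, the hexokinase of white blood cells, had log2 ratios of 0.54, -0.10, -0.63 and 0.11 on the BN controls and 3.75, 4.60, 4.17 and 3.88 on the BN procainamide arrays. Among SD controls it had -0.20, -0.97, 0.66, 0.30 and 0.20, and after procainamide 2.99, 3.27, 3.91, 2.64 and 3.18. The groups were far apart in both strains, and the average response was 3.66 ± 0.22 (SE; adjusted p = 7.18e-08), a 12.6-fold rise. Acod1, which makes itaconate in activated macrophages, had 0.03, -0.40, -0.37 and -0.09 on the BN controls and 3.54, 6.0, 4.94 and 4.26 after procainamide. On the SD controls it had -0.42, -1.30, 0.80, -0.53 and 0.19, and after procainamide 2.43, 3.27, 3.47, 1.90 and 2.95. Its average response was 3.97 ± 0.31 (SE; adjusted p = 3.12e-07). The BN size is inexact, since only 2 of 4 BN control arrays had Acod1 well above background.

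Ass1, an enzyme that remakes arginine from citrulline, rose in both strains but more in BN. Its BN values were -0.35, 0.05, -0.44 and -0.09 on the controls and 2.88, 5.05, 3.30 and 3.41 after procainamide. Its SD values were -0.09, -0.46, 0.34, 0.05 and -0.01 on the controls and 1.05, 1.75, 1.90, 0.90 and 1.41 after procainamide. The response was 3.87 in BN and 1.44 in SD, a difference of 2.43 (adjusted p = 0.00363). Of the 19 genes measured in the list of itaconate, arginine and hexose entry, 6 rose and 1 fell, with a median of 0.08. Ggt1, a glutathione-degrading transpeptidase outside the lists, rose by 1.75 (BN 2.13, SD 1.36). Glycolysis genes rose in 6 of 24, Tpi1 by 0.40, Pgk1 by 0.28 and Pfkp by 0.52, and none of the 24 passed in both strains. Genes of oxidative phosphorylation rose in 13 of 60 and fell in 0, with a median of 0.16. The cytochrome oxidase subunits Cox7b (0.40) and Cox5a (0.34) and the complex III subunit Uqcrb (0.22) were apart on the arrays of both strains. The other probe of Uqcrb (0.02) did not pass. In Cy5 alone 6 of the 60 rose, with scan day as a term 5 did, and without BN procainamide 2 there were 7.

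Chemokines rose in 11 of 29 measured members and fell in 2 (4 without BN control 1 or without BN procainamide 3), with a median of -0.01. Ccl20, which attracts cells bearing Ccr6, had -0.21, -0.55, -0.45 and -0.15 on the BN controls and 2.18, 2.86, 2.07 and 2.02 after procainamide. In SD it had -0.12, -0.53, 0.19, -0.14 and -0.43 on the controls, and after procainamide 1.08, 1.54, 1.40, 0.85 and 1.15. The gap was wider in BN, and the difference of the responses was 1.21 (adjusted p = 0.00668) around an average of 2.02 ± 0.13 (SE; adjusted p = 7.18e-08). Only 2 of 5 SD controls had it well above background, which makes its SD response inexact. The monocyte chemokines Ccl2 (1.59, with BN 1.62 and SD 1.57) and Ccl7 (1.51, with BN 1.68 and SD 1.35) rose as well. They are neighbours among the measured protein-coding genes. The BN response minus the SD response was 0.05 ± 0.36 (SE; adjusted p = 0.951) for Ccl2 and 0.32 ± 0.48 (SE; adjusted p = 0.709) for Ccl7. Ccl19, a ligand of Ccr7, rose by 1.18 and Ccl4, a chemokine of monocytes and T cells, by 1.05. Gpr84, a fatty acid receptor of myeloid cells, rose by 1.89.

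Of 25 inflammatory cytokines and NF-kB feedback genes, 10 rose and 1 fell, with a median of 0.15. The adhesion molecule Icam1 rose by 0.64, the mitochondrial dismutase Sod2 by 0.75, Tnfaip2 by 0.64 and the cytokine Il6 by 0.36. Il6 passed in neither strain alone, and lost its call when single arrays were left out in 11 of 18 fits. Of 27 complement genes, 6 rose and 4 fell. Complement C3 rose by 1.59 (BN 2.39, SD 0.79; adjusted p = 0.00588 for the difference), its convertase component C2 by 1.35 (BN 1.43, SD 1.28) and C1s by 0.55. Cr2, the complement receptor of B cells, fell by 0.48. Of 20 Toll-like receptor genes, 2 rose and 1 fell, beside 6.47% and 8.96% of all genes tested. The flagellin receptor Tlr5 rose by 0.58 in each strain, the adaptor Ticam2 rose by 0.48, and Ly96, the lipopolysaccharide co-receptor, fell by 0.56. Ly96 lost its call in 8 of the 18 fits that left out 1 array, and its other probe (-0.46) did not pass.

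Markers of NK cells and cytotoxic lymphocytes rose in 7 of 25 and fell in 1, with a median of 0.17. The receptor genes Klrc1 (1.38) and Klrc2 (1.00) rose more in BN than in SD (adjusted p = 0.0186 and 0.0189 for the difference). They are neighbours among the measured protein-coding genes, and their probes may share signal. The granule protease Gzmm rose by 0.67, the Fc receptor Fcgr3a by 0.89 and the death ligand Faslg by 0.86. T cell markers rose in 4 of 30 and fell in 0, beside 6.47% and 8.96% of all genes tested, with a median of 0.14. Il21, a cytokine of helper T cells, rose by 1.02 ± 0.08 (SE; BN 1.23, SD 0.81), Cd6 by 0.41 and Cd27 by 0.35. Of 17 genes of Th2, Th17 and regulatory cytokines, 2 rose, Il21 and Stat3 (0.36), and Il9 fell by 0.38. Il9 was lower in BN (-0.87), with 0.12 in SD. Of 18 chemokine receptors, 3 rose and 2 fell. Cxcr6, found on effector T and NKT cells, rose by 0.97 (BN 1.46, SD 0.47).

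The other blood cell lists gave these counts, beside 6.47% higher and 8.96% lower over all genes tested. B cell and plasma cell markers rose in 1 of 22 and fell in 1, these being Sdc1 of plasma cells (0.54) and Cr2. Without BN control 2, 4 rose. Neutrophil markers rose in 4 of 25 and fell in 1, among them Cyba (0.39), a subunit of the NADPH oxidase, and the formyl peptide receptor Fpr1 (-0.64). Monocyte markers rose in 3 of 25 and fell in 7, with a median of -0.13. Among the 7 that fell, the scavenger receptor Cd36 fell by 0.55, the receptor Cd300le by 1.23 and Nr4a1, a factor of patrolling monocytes, by 0.51. The 3 that rose are not named here. The ranges of the monocyte list's median were -0.36 to 0.11 in BN control, -0.53 to 0.32 in BN procainamide, -0.20 to 0.07 in SD control and -0.68 to -0.07 in SD procainamide. They overlapped in both strains. Erythroid markers fell in 3 of 24, all of them globins (Hbb -0.88, Hbb-b1 -0.87 and Hba-a1 -0.72). Without BN control 1, which stood apart in this list, 0 of 24 passed. In Cy5 alone 0 of 24 passed as well, and these 3 lost their calls in 9 to 12 of the 18 fits that left out 1 array.

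Procainamide's known action on DNA methylation was followed in 2 lists. The shares over all genes tested were 6.47% higher and 8.96% lower. Of 12 measured genes of the DNA methylation machinery, Gadd45b rose (0.32) and Tet3 fell (-0.25), with a median of 0.09. Both were changes of BN, at 0.59 and -0.58, where SD had 0.05 and 0.08, and the differences passed their test (adjusted p = 0.0102 and 0.00384). Of 11 T cell genes known to be sensitive to methylation, 2 rose, Ifng and Il6, and the median was 0.04. Drug metabolism genes fell in 5 of 20 and rose in 0, among them the glutathione transferases Gstp1 (-0.47), Gsta1 (-0.40) and Gstt1 (-0.62). The inflammatory caspase gene Casp1 (0.44) was among 7 of 26 Bcl2 family and death receptor genes that rose. Of the genes for clearing dead cells, 2 of 20 rose (0 without SD control 2 or without SD control 5) and 3 fell, Cd36, Anxa1 (-0.32) and Gas6 (-0.40). For Anxa1 and Gas6 treated and control arrays were apart in SD but overlapped in BN. Of 14 other settings, Anxa1 lost its call in 3 and Gas6 in 2. Of 32 cell cycle genes 1 rose, the replication factor Mcm3 (0.32), but this count depended on 1 array. Without BN control 1, which stood apart in this list, 19 rose, and the list's median was 0.35 (BN 0.26, SD 0.45) in place of 0.22 (BN 0.04, SD 0.45). In SD the list's median lay between -0.22 and 0.15 on the controls and between 0.26 and 0.70 after procainamide, with no overlap. Its range was -0.46 to -0.32 on BN controls 2 to 4 and -0.36 to -0.01 after procainamide, which overlapped.

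Signs of stress and handling were mixed. Over all genes tested, 6.47% rose and 8.96% fell. Of 25 immediate early genes, 2 rose and 3 fell, with Egr2 at 0.54, Klf4 at -0.46 and Nr4a1 at -0.51. Of 17 genes of the glucocorticoid response, 1 rose and 5 fell, and with 1 array left out 2 (without BN control 2) to 7 fell. Ddit4 fell by 0.77 and Tsc22d1 by 0.36, while the metallothionein Mt1 rose by 0.68. Cytosolic ribosomal protein genes fell in 4 of 64 (2 without BN control 4, SD control 2, 3 or 4). This is no larger a share than the 8.96% over all genes. Among the 4 were Rpl17 (-0.28), Rpl5 (-0.28) and Rplp0 (-0.28). Of 14 other settings, Rplp0 lost its call in 9, Rpl5 in 7 and Rpl17 in 4, and Rplp0 lost it in 6 of the 18 fits that left out 1 array. The other probe of Rplp0 and that of Rpl17 did not pass. Constitutive proteasome genes rose in 4 of 32, among them Psmb2 (0.40), Psma5 (0.24) and Psmd12 (0.17). Several of these averages were uneven between strains. The BN response minus the SD response was -1.18 for Ddit4 and -0.59 for Rpl17 (limma, adjusted p = 0.012 and 0.00682). It was 0.33 for Psmd12 and 0.42 for Klf4 (adjusted p = 0.0279 and 0.0482). For Ddit4, Rpl17 and Psmd12 treated and control arrays were apart in BN and overlapped in SD. For Klf4 they were apart in SD and overlapped in BN.

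**Figure D4:**
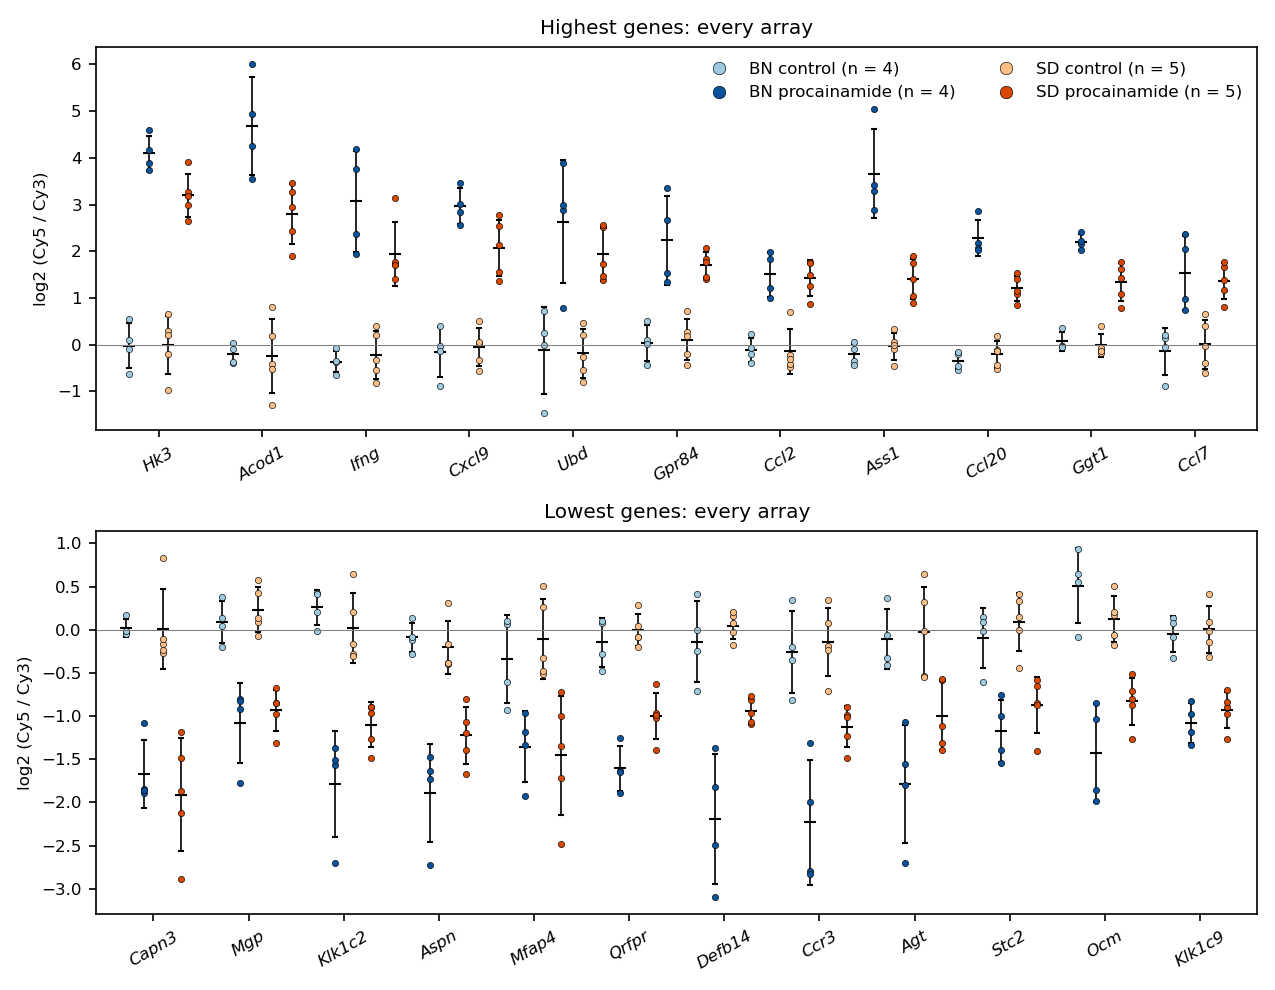
Log2 ratios of Cy5 over Cy3 (y axis) on every array for 11 of the 12 highest and the 12 lowest genes by the smaller response of the 2 strains. Points are arrays coloured by group, and black marks give the mean and SD of each group. All 23 were picked from genes whose procainamide arrays lie on 1 side of the controls in both strains.

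The genes that fell in both strains were of other kinds. Capn3, a protease best known from skeletal muscle, had 0.17, -0.03, -0.05 and -0.02 on the BN controls and -1.84, -1.89, -1.08 and -1.86 after procainamide. On the SD controls it had -0.27, 0.83, -0.24, -0.17 and -0.11, and after procainamide -1.87, -1.48, -2.89, -2.12 and -1.18. The groups did not overlap in either strain, and Capn3 fell by 1.80 ± 0.20 (SE; adjusted p = 1.73e-05). Among muscle and eye markers 4 of 17 fell, with Myh1, a fast myosin, at -1.04 and Myh4 at -0.39.

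Markers of endothelium, connective tissue and epithelium fell in 14 of 27 measured members and rose in 0, with a median of -0.44 against -0.02 over all genes. Here 5 fell in both strains. All 27 were well above background on all 18 arrays. The list's median lay between -0.19 and -0.06 on the BN controls, between -0.72 and -0.27 on the BN procainamide arrays, between -0.13 and 0.19 on the SD controls and between -0.64 and -0.15 on the SD procainamide arrays. Treated and control arrays did not overlap in this median in either strain. Mgp, the matrix Gla protein of cartilage and vessel walls, fell by 1.17 in each strain. Its values were -0.20, 0.38, 0.13 and 0.04 on the BN controls and -0.80, -1.77, -0.92 and -0.82 after procainamide, and 0.09, 0.58, -0.07, 0.14 and 0.42 on the SD controls and -0.98, -1.31, -0.68, -0.85 and -0.85 after procainamide. In Mgp the fall was 0.58 in Cy5 and the Cy3 reference rose by 0.59. Mfap4, a microfibril protein, fell by 1.18, with the groups nearly touching in BN (-0.97 and -0.93). The gap junction gene Gjb2 fell by 1.02 and the VEGF receptor Kdr by 0.52. Outside the list, Aspn, a small proteoglycan of cartilage, fell by 1.41 together with Omd, its neighbour among the measured protein-coding genes.

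Platelet markers fell in 9 of 18 and rose in 0, with a median of -0.35 (BN -0.32, SD -0.31). Their median lay between -0.23 and 0.22 on the BN controls and between -0.61 and -0.18 after procainamide, and between -0.06 and 0.09 on the SD controls and between -0.38 and -0.22 after procainamide. The BN ranges overlapped and the SD ranges did not. None of the 18 passed in both strains. Gp1bb, a chain of the von Willebrand factor receptor, fell by 0.59, the ADP receptor P2ry12 by 0.38 and the light chain Myl9 by 0.38. In Cy5 alone 7 of the 18 fell, with scan day as a term 4 did, and without BN control 3 there were 5. What the connective tissue and platelet lists contribute to the other falls was not tested.

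Tissue kallikreins, serine proteases best known from glands, fell in 8 of 13 measured members and rose in 0, with a median of -0.61 (BN -1.01, SD -0.56). In both strains 6 fell. Klk1c2 had 0.43, -0.01, 0.41 and 0.20 on the BN controls and -1.57, -2.70, -1.37 and -1.51 after procainamide. Its SD controls had -0.28, 0.65, -0.30, 0.20 and -0.17, and after procainamide -0.96, -1.48, -0.90, -0.90 and -1.26. Its groups were apart in both strains, and it fell by 1.58 ± 0.17 (SE; adjusted p = 1.1e-05). Klk1c9 fell by 0.98 and was not well above background on any of the 4 BN procainamide arrays, so its level there is inexact. Its BN response was -1.03 as a ratio. In Cy5 alone, normalized between arrays, its mean was 8.09 in BN control and 6.9 in BN procainamide. Klk1c12 fell by 0.61.

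The other kallikreins that fell did so more in BN. Klk1 had a response of -2.86 in BN and -0.71 in SD, Klk1c3 -2.97 and -0.87, Klk1c8 -2.80 and -0.77, and Klk1b3 -3.86 and -0.69. The difference passed its test in each (adjusted p = 0.00106, 0.00147, 0.00132 and 0.000827). Klk1b3 did not pass in SD (adjusted p = 0.152). Klk10 fell by 0.33 in the average, at -1.01 in BN and 0.35 in SD. The members Klk6, Klk7, Klk11, Klk13 and Klk1c10 did not pass in the average (-0.12, -0.06, -0.10, -0.32 and -0.06). Klk1c2, Klk1c8, Klk1c9, Klk1 and Klk1c3 follow one another among the measured protein-coding genes. These genes are close copies, and signal of one can reach the probe of another.

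Ccr3, the eotaxin receptor of eosinophils, had 0.34, -0.20, -0.81 and -0.35 on the BN controls and -2.79, -2.83, -1.31 and -1.99 after procainamide. On the SD controls it had -0.71, 0.34, 0.08, -0.19 and -0.24, and after procainamide -0.99, -1.23, -1.49, -1.01 and -0.90. Treated arrays lay below controls in both strains, and Ccr3 fell by 1.48 ± 0.20 (SE; adjusted p = 0.000125), with an adjusted p of 0.0608 in SD alone. Among all genes tested 8.96% fell and 6.47% rose. Of the 19 eosinophil, basophil and mast cell markers measured, Ccr3 among them, 2 fell (4 without BN procainamide 3) and 2 rose. The other that fell was the inhibitory receptor Cd200r1 (-0.63), and those that rose were the histidine decarboxylase Hdc (1.03) and the IgE receptor chain Fcer1a (0.65). Fcer1a lost its call in 9 of the 18 fits that left out 1 array, and its other probe (0.15) did not pass. The granule protein genes of eosinophils, singled out after their values were seen, did not pass in the average, Prg3 at -1.23 (adjusted p = 0.097), Prg2 at -0.91 (adjusted p = 0.134) and Epx at -0.76 (adjusted p = 0.267). Prg3 and Prg2 fell in BN alone, by 2.29 and 1.73 (adjusted p = 0.0287 and 0.0425), while in SD they had -0.16 and -0.09. The difference between the strains did not pass in either (adjusted p = 0.159 and 0.19).

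The remaining genes of the 12 lowest have little in common. The angiotensinogen gene Agt fell by 1.32, with an adjusted p of 0.0799 in SD, where treated and control arrays nearly touched (-0.57 and -0.55). Defb14, a beta-defensin, fell by 1.52, the neuropeptide receptor gene Qrfpr by 1.23 and Stc2, a stanniocalcin, by 1.02. Ocm, the calcium-binding oncomodulin, fell by 1.45, but its 2 probes disagreed, the other having 0.31.

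The 8 genes that passed in both strains with opposite signs are the counterpart of the shared response. Of these, Rbm20, a splicing factor, had 0.54 in BN and -0.64 in SD. Rapgef5, a Rap exchange factor, had 0.70 and -0.46. The NF-kB regulator Bcl3 had -0.39 in BN and 0.47 in SD, and the olfactory receptor gene Or6d12c -0.52 and 0.51. Their averages lay between -0.05 and 0.12.

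Some neighbouring genes of the 333 moved together. Beside the kallikreins and Omd with Aspn among the lower genes, the pairs Cxcl10 and Cxcl9, Gbp5 and Gbp2, Tap1 and Psmb9, C2 and Cfb, and RT1-A2 and RT1-A1 were next to each other and higher. Neighbours here are consecutive among the measured protein-coding genes in RefSeq's GRCr8 order, so unmeasured genes can lie between them. In all 24 pairs of such neighbours shared the group and its direction. No count for pairs drawn from other genes stands beside this number.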

How the data were processed

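Median spot and background intensities of 18 Agilent 2-colour arrays (62976 spots each) came from Feature Extraction 10.7.1.1 without normalization, per the file headers. The same software made the processed intensities and the log10 ratio of Cy5 over Cy3, per the file headers. Per the labels' protocols total RNA was isolated with Trizol and labelled with a low-input kit, with the sample in Cy5. Also deposited by the authors is a table of log2 values, whose scale, centring and direction are not given in the sources used here. Each column followed the scanner's ratio with slope 1 and r of at least 0.9995, so it holds log2 Cy5 over Cy3 with no gene centred. Its medians were -0.0140, 0.0135, 0.00266 and 0.000872 on BN control 1 to 4, 0.0653, 0.0477, 0.0179 and 0.0368 on BN procainamide 1 to 4, 0.0210, 0.00510, 0.0173, 0.0121 and 0.0181 on SD control 1 to 5, and 0.0282, 0.0367, 0.0575, 0.0180 and 0.0133 on SD procainamide 1 to 5. The filter behind its 25602 probes is unstated.

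Intensities were background-corrected with normexp (offset 50) and normalized by loess within each array (limma 3.58.1, R 4.3.3), with control spots at weight 0. Spots of a probe were averaged without those marked as outliers, except in 0.0741% of values. Channels on their own were additionally normalized between arrays (Aquantile). Tested were 26446 probes, those whose Cy5 cleared the scanner's background test on 4 or more of 18 arrays. Of 30367 probes, 18355 carried 1 symbol through accessions in RefSeq's GRCr8 table. A gene is its probe of highest mean intensity. Limma fitted 1 mean per group over all arrays, moderated by eBayes, 2-sided, with Benjamini-Hochberg adjustment over all probes (threshold 0.05). The fit was tested on simulated data with known changes. Genes named were the 12 highest and 12 lowest by the smaller of both strains' responses among those apart in both strains, up to 3 per list by p, 4 with opposite signs and all measured members of the interferon gamma, MHC class I and kallikrein lists, a part added after values were seen. A few genes are not reported here, though counts over lists hold them. The members and the 34 lists were chosen with earlier results of these data known, and lists are described with no test. Replicate numbers did not pair the arrays: deviations of same-numbered control and treated arrays correlated between -0.523 and 0.129. Other settings were tried in normalization, channel, filter, scan day, slide, brightness, weights, replicate block, probes and arrays left out.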

Additional observations from a re-analysis of the deposited data

Results flagged for a closer look

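In each named gene, arrays far from the others of their group were sought in the 4 groups. This gave 40 of 600 groups, and chance flags about 1 in 20. Values are log2 ratios, with the range of the other arrays of the group. BN control 1 stood apart in Capn3 (0.17, others -0.048 to -0.018), Rpl17 (0.26, others 0.61 to 0.68), Gsta1 (0.18, others -0.16 to -0.13), Cox7b (0.24, others -0.011 to 0.0071), Oasl2 (0.46, others -0.087 to -0.02) and Tap1 (0.45, others -0.075 to -0.0024). BN control 2 stood apart in Fcer1a (0.35, others -0.64 to -0.49) and Tapbpl (-0.18, others 0.11 to 0.15). BN control 3 stood apart in Ggt1 (0.36, others -0.045 to -0.021), Cd6 (0.15, others -0.072 to -0.05), Ly96 (-0.70, others 0.036 to 0.15) and Cxcr3 (-0.33, others 0.017 to 0.073). BN control 4 stood apart in Ifi30 (0.16, others 0.24 to 0.24) and Ccl19 (0.40, others -0.19 to -0.12). BN procainamide 2 stood apart in Mgp (-1.77, others -0.92 to -0.80), Klk1c2 (-2.70, others -1.57 to -1.37), Klk1b3 (-2.78, others -4.04 to -3.87) and Tapbp (0.82, others 0.49 to 0.52). BN procainamide 3 stood apart in Capn3 (-1.08, others -1.89 to -1.84), Faslg (0.11, others 1.12 to 1.21) and Cd300le (-0.10, others -2.04 to -1.74). BN procainamide 4 stood apart in Hbb-b1 (-1.36, others -0.53 to -0.38). SD control 2 stood apart in Capn3 (0.83, others -0.27 to -0.12) and Cxcl10 (-0.40, others -0.043 to 0.039). SD control 3 stood apart in Ccl2 (0.69, others -0.48 to -0.22), Ggt1 (0.40, others -0.17 to -0.083), Gbp5 (0.11, others -0.19 to -0.12), Tbx21 (-0.32, others -0.0097 to 0.02) and Tap1 (0.39, others -0.048 to 0.0099). SD control 5 stood apart in Gsta1 (0.24, others -0.15 to -0.038), Rbm20 (0.27, others -0.25 to -0.18) and Igtp (0.42, others -0.034 to 0.094). SD procainamide 1 stood apart in Rpl17 (0.19, others 0.37 to 0.43). SD procainamide 2 stood apart in Ifng (3.15, others 1.40 to 1.77) and Calr (0.34, others -0.11 to 0.0025). SD procainamide 3 stood apart in Casp1 (-0.20, others 0.22 to 0.29), Ticam2 (0.57, others 0.01 to 0.17), Rpl5 (-0.38, others -0.044 to 0.074) and Ido1 (0.92, others 0.35 to 0.51). SD procainamide 4 stood apart in Tnfaip2 (-0.24, others 0.24 to 0.40).

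In 33 of the 150 named genes the response differed between the strains by limma's test of the difference. The BN response minus the SD response, with its adjusted p in parentheses, was above 0 in 19 of them: Ass1 2.43 (0.00363), Ccl20 1.21 (0.00668), Gadd45b 0.54 (0.0102), Ciita 0.65 (0.00802), Rfx5 0.51 (0.0464), Klrc1 1.15 (0.0186), Klrc2 0.94 (0.0189), Cxcr6 0.99 (0.0242), C3 1.60 (0.00588), C1s 0.51 (0.00958), Psmd12 0.33 (0.0279), Tpi1 0.63 (0.00311), Klf4 0.42 (0.0482), Icam1 0.52 (0.0181), Sod2 0.78 (0.0082), Irf1 0.58 (0.0386), Rbm20 1.18 (0.00132), Rapgef5 1.17 (0.00132) and Gbp2 0.81 (0.0449). It was below 0 in the other 14: Tet3 -0.66 (0.00384), Il9 -0.98 (0.00441), Rpl17 -0.59 (0.00682), Ddit4 -1.18 (0.012), P2ry12 -0.57 (0.0191), Klk1 -2.16 (0.00106), Klk1c8 -2.02 (0.00132), Klk1b3 -3.17 (0.000827), Or6d12c -1.03 (0.0025), Bcl3 -0.86 (0.0021), Tapbpl -1.20 (0.0286), Klk10 -1.36 (0.00132), Klk13 -0.90 (0.0314) and Klk1c3 -2.11 (0.00147). The slides and scan days of the strains differ as well, and cannot be told apart from the strain.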

How the results depend on the processing

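Of the 333 genes apart in both strains, 328 to 333 were measured in all settings except the filter for background on all 18 arrays (313). All of them kept their direction, apart from 1 gene in Cy5 alone, and between 303 (Cy5 alone) and 333 passed. They had been chosen on these same arrays, so this is no separate test. The 23 reported highest and lowest genes passed in every setting. Of 4791 values of named genes under other settings, 4602 kept their call, 181 no longer passed and 8 newly passed. In 0 did the sign reverse where the gene passed in either fit. Signs of genes that passed in neither fit were not counted, and some changed, as in Rbm20 (-0.17 to 0.08) and Jak1 (-0.10 to 0.22). Cy5 alone gave a log2 value at least 1.5 times smaller in 49 of the 131 named genes called, among them Cxcl9 (1.53), Ubd (1.38) and Mgp (-0.58). The software's own log ratio gave 3.22 for Ccl20 and -1.89 for Klk1c9, and the mean of both probes gave -0.57 for Ocm.

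Counts moved more than genes did. Against 881 higher and 1220 lower in the average, and 115 higher and 122 lower in both strains, scan day as a term gave 486, 659, 24 and 5. Brightness as a term gave 54 and 42 in both strains, the SD response within slide 1, chosen after seeing the data, 54 and 26, array weights 248 and 295, and the software's log ratio 76 lower. A single drug term with a strain term gave 753 lower in the average. Replicate numbers did not pair the arrays; with the replicate block the counts were 468, 691, 35 and 14. With 1 array left out the ranges were 689 to 1053, 929 to 1423, 54 to 144 and 36 to 130. The counts higher and lower in both strains were 73 and 81 without SD control 1, 54 and 36 without SD control 2, 66 and 55 without SD procainamide 2 and 73 and 58 without SD procainamide 5. The lower count was 55 without SD control 4, 72 without SD control 5, 67 without SD procainamide 3 and 66 without SD procainamide 4. The cause was not tested. Signal over background limits Klk1c9 and Acod1 in BN and Ccl20 in SD, and the number of arrays limits precision.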

Other observations

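Values of the reference channel belong to no comparison of the design. Cy3 is labelled as the same RNA on every array of a strain. With the same contrast, Cy3 alone rose in 1705 and fell in 527 of the 13616 named genes (16.4%) by limma at an adjusted p under 0.05. Of the 333 genes apart in both strains, 157 changed in Cy3 against the direction of the ratio and 9 with it. These were 57 of the 160 higher and 100 of the 173 lower genes. In Cy5 alone 332 of the 333 had the direction of the ratio, and 303 passed. The median share of the log2 ratio that lay in Cy5 was 81.8%. With the 333 split by mean intensity into sets of 111, it was 93.2% in the dimmest set, 83.9% in the middle and 68.9% in the brightest. In the brightest set 81 of 111 genes changed in Cy3 against the ratio, and in the dimmest 29 of 111 did. The cause was not tested.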
